A study of Mus musculus with 4 samples.

Results

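The AP-1 family was described here by 9 genes, Fos, Fosb, Fosl1, Fosl2, Jun, Junb, Jund, Atf3 and Maff, picked out by gene symbol as 1 family. All 9 were found by gene symbol among the 48432 gene rows of the deposited table, and all carried the status OK in both groups. Polyadenylated RNA had been sequenced from cardiomyocytes, the beating muscle cells, which were freed from hearts by Langendorff perfusion, the passing of enzyme through the coronary vessels. The 4 mouse libraries formed 2 groups of 2. The MHC group, the control, carried the genotype label MHC, which the labels do not spell out, and the Rbfox2 OE group overexpressed RBFOX2, an RNA-binding regulator of splicing. Both groups had the strain C57BL x FVB and had eaten doxycycline diet for 3 days, so the controls share the strain cross and the drug. The labels do not name the promoter that drives the RBFOX2 transgene, the animals' age or sex, or whether the libraries of a group came from separate animals.

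AP-1 is a dimeric transcription factor. FOS proteins cannot form stable homodimers and pair with JUN proteins, which can also pair with each other, and ATF and small MAF proteins join the same leucine-zipper network. Many of these genes are immediate early genes, which are transcribed within minutes of a stimulus from factors already present in the cell and whose messenger RNAs are short-lived. In heart muscle AP-1 genes are known to respond to stretch, adrenergic stimulation and ischaemia, and enzymatic tissue dissociation is itself known to induce several of them.

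The values were FPKM, fragments per kilobase of transcript scaled for sequencing depth, so levels of different genes can be set side by side. How the libraries were scaled to each other is not given in the sources used here. The table gave 1 pooled value per gene and group and no value per library. With each value came a pair of bounds whose level is not stated, printed below as a range. No spread between libraries and no test between the groups could therefore be had. Differences are given below as the log2 ratio of Rbfox2 OE over the control, computed after adding 1 FPKM to both values, and by whether the deposited bounds of the groups overlapped. In bulk RNA, fewer cells of a type and less RNA per cell cannot be told apart.

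Rbfox2 itself stood at 14.7 FPKM in MHC against 293 FPKM in Rbfox2 OE, the direction that the labels give. Cardiomyocyte transcripts dominated both groups: the summed level of 13 cardiomyocyte markers was 55911 FPKM in MHC against 34669 FPKM in Rbfox2 OE, with Myh6 and Mb listed at 0 in both because the authors' software made no estimate for them. Over the 11699 genes averaging 1 FPKM or more across the groups, the median log2 ratio was -0.06, and it became 0.06 when Rbfox2 OE was rescaled without mitochondrial genes and the 10 most abundant genes. That rescaling raised Rbfox2 OE by 0.15 on the log2 scale, and it is named below where it changed a count or a call that is printed.

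In the control, AP-1 transcripts fell into a high and a low tier. Junb (192 FPKM), Fos (189 FPKM), Jun (183 FPKM) and Jund (162 FPKM) lay close together at the top, and the bounds of neighbours in that order overlapped from Fos down to Jund and on to Atf3, at 89.9 FPKM. Fos was above 96.8% of the genes compared. A gap followed: Fosb stood at 15.7 FPKM (upper bound 20.7), clear of the lower bound of Atf3 at 54.5 FPKM. Fosb, Maff (9.57 FPKM) and Fosl2 (7.53 FPKM) had overlapping bounds as neighbours, and Fosl1, at 0.120 FPKM, was separate from all of them.

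In Rbfox2 OE the order was similar and the tiers lay closer together. Junb (225 FPKM) was again the highest value, followed by Jund (111 FPKM), Fos (104 FPKM) and Jun (97.3 FPKM), the last 3 with overlapping bounds. Atf3, at 37.4 FPKM, was now separate from Jun above it and overlapped Fosb below it, at 23.6 FPKM. Fosl2 (18.1 FPKM) and Maff (15.0 FPKM) came next with overlapping bounds, and Fosl1 was the lowest, at 1.59 FPKM. Summed over the 9 genes, the level was 849 FPKM in MHC against 632 FPKM in Rbfox2 OE, and without Junb, whose values lie outside their own bounds, it was 657 FPKM against 407 FPKM.

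**Figure D1:**
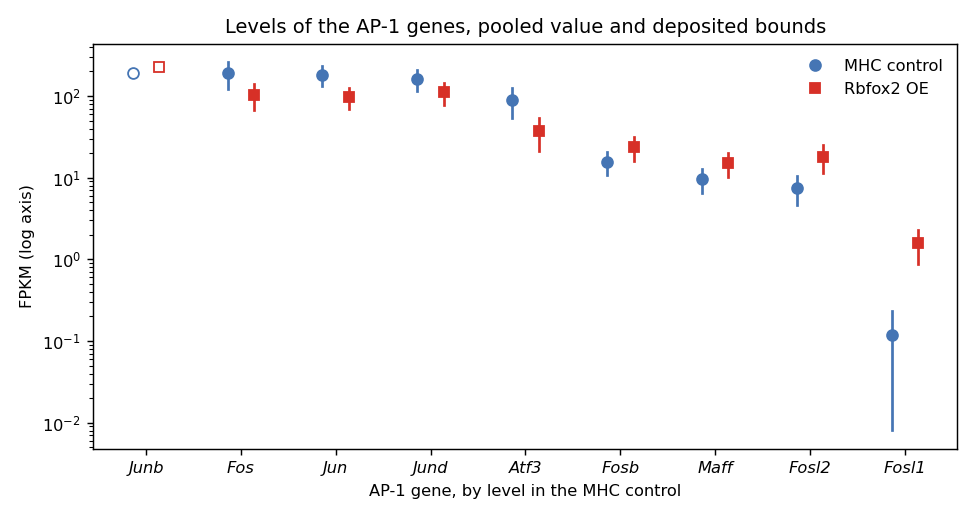
FPKM of each AP-1 gene (log axis) in the MHC control (circles) and Rbfox2 OE (squares), 1 pooled value of 2 libraries each, with vertical lines for the deposited bounds; the open Junb symbols have no usable bounds. Fos, Jun, Jund and Atf3 are lower in Rbfox2 OE, while Fosb, Maff, Fosl2 and Fosl1 are higher; the lines of Fos, Jund, Fosb and Maff overlap between the groups.

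Of the 9 genes, 4 had a log2 ratio below 0 and 5 above 0. Fosl1 fell short of the mean of 1 FPKM, so 8 members entered the comparison with all genes, and what passed that filter is a description only. Of these 8, the bounds were separate for 2 lower genes (Jun and Atf3), where 9.31% of all genes compared were separate and lower, and for 1 higher gene (Fosl2), where 6.67% were separate and higher. A difference of at least 2-fold was reached by 2 of the 8, Atf3 on the lower and Fosl2 on the higher side, where 17.0% of all genes were 2-fold apart in either direction and 6.97% were 2-fold higher. The bounds overlapped for 4 of the 8, and Junb could not be judged. With the median gene set to 0, Jun and Fosl2 were separate, beside 8.39% of genes lower and 7.44% higher, and on rescaling Fosl2 alone was, beside 7.15% lower and 8.62% higher. The median log2 ratio of the 8 was -0.16, beside -0.06 for all genes compared. It was -0.01 on rescaling, beside 0.06, and 0.23 with all 9 members. That 0.23 is the value of Junb, and the median of the 8 lies midway between Jund (-0.54) and Junb. Without Junb the middle of the compared members is Jund itself, and with Fosl1 added it lies between Jund and Fosb (0.56). The median depends on whether Junb, which could not be judged, and Fosl1 are counted, so it gives no stable direction for the family.

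Fos (ENSMUSG00000021250, GRCm38 chr12:85473890-85477273, plus strand) encodes the founding FOS subunit and has 4 exons. It stood at 189 FPKM in MHC (range 120 to 258) against 104 FPKM in Rbfox2 OE (range 67.0 to 140.4). The log2 ratio was -0.86. The bounds overlapped, although the value of each group lay outside the bounds of the other.

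Jun (ENSMUSG00000052684, chr4:95049034-95052222, minus strand) encodes the founding JUN subunit, the main partner of FOS, and is a gene of 1 exon. Its level was 183 FPKM in MHC (range 132 to 234) against 97.3 FPKM in Rbfox2 OE (range 69.1 to 125). The value in Rbfox2 OE was 0.531 times that of the control, a log2 ratio of -0.91, and the bounds were separate as deposited. On rescaling the upper bound in Rbfox2 OE became 139 FPKM, above the control's lower bound, and the separation was lost. The antisense gene Junos overlaps Jun and stood at 0.505 FPKM in MHC against 0.575 FPKM in Rbfox2 OE; whether the counting used strand is not stated, so fragments of a gene and its antisense partner cannot be told apart here.

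Atf3 (ENSMUSG00000026628, chr1:191170296-191218039, minus strand) encodes a stress-induced factor that can repress transcription as a homodimer. It had the lowest log2 ratio of the family. Its level was 89.9 FPKM in MHC (range 54.5 to 125) against 37.4 FPKM in Rbfox2 OE (range 21.5 to 53.3), a log2 ratio of -1.24, and 6.17% of all genes compared had a lower ratio. The separation of its bounds was narrow and did not hold under another scaling: the upper bound in Rbfox2 OE became 55.7 FPKM with the median gene set to 0 and 59.0 FPKM on rescaling. The ratio remained past 2-fold in both, at -1.18 and -1.10. The small RNA gene Gm24748, which overlaps Atf3, was listed at 0 in both groups.

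Jund (ENSMUSG00000071076, chr8:70698949-70700616, plus strand) encodes the JUN protein that is usually present in resting cells, and like Jun has 1 exon. It stood at 162 FPKM in MHC (range 116 to 208) against 111 FPKM in Rbfox2 OE (range 78.1 to 143), a log2 ratio of -0.54, and the bounds overlapped. The annotated antisense gene Gm11175 lies inside Jund and stood at 2.87 FPKM in MHC against 1.93 FPKM in Rbfox2 OE.

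Junb (ENSMUSG00000052837, chr8:84974484-84978718, minus strand) encodes a JUN protein known as a weaker activator that can antagonise JUN. It was listed at 192 FPKM in MHC against 225 FPKM in Rbfox2 OE, a log2 ratio of 0.23. The bounds deposited with these values, 0 to 1.44 FPKM and 0 to 1.23 FPKM, exclude the values themselves, so no error can be given and the difference cannot be judged. The locus given for Junb ends at base 84976542, which is where the noncoding transcript Junb-202 ends, whereas the protein-coding transcript Junb-201 runs from 84976910 to 84978718, beyond it. The same locus also holds Prdx2, which overlaps Junb on the opposite strand and stood at 221 FPKM in MHC against 181 FPKM in Rbfox2 OE.

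Fosb (ENSMUSG00000003545, chr7:19302696-19310051, minus strand), which also gives rise to the truncated form known as DeltaFosB, was on the other side of 0. It stood at 15.7 FPKM in MHC (range 10.7 to 20.7) against 23.6 FPKM in Rbfox2 OE (range 16.0 to 31.2), a log2 ratio of 0.56 with overlapping bounds. The gene-level value does not separate its isoforms. Maff (ENSMUSG00000042622, chr15:79346621-79359076, plus strand) encodes a small MAF protein, which has a leucine zipper but lacks a transactivation domain. Its level was 9.57 FPKM in MHC (range 6.47 to 12.7) against 15.0 FPKM in Rbfox2 OE (range 10.2 to 19.9), a log2 ratio of 0.60, again with overlapping bounds.

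Fosl2 (ENSMUSG00000029135, chr5:32135801-32157842, plus strand) encodes FRA-2, a FOS protein without the strong transactivation domain of FOS. Fosl2 was higher in Rbfox2 OE, at 18.1 FPKM (range 11.3 to 24.9) against 7.53 FPKM in MHC (range 4.63 to 10.4). The log2 ratio was 1.16, and 94.9% of the genes compared had a lower ratio. Its bounds were separate as deposited, after the median gene was set to 0 and on rescaling, with log2 ratios of 1.22 and 1.30 in the latter cases. It is the single member with a mean of at least 1 FPKM for which this held.

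Fosl1 (ENSMUSG00000024912, chr19:5447547-5455946, plus strand) encodes FRA-1, the related FOS protein best known from proliferating and invasive cells. It was near 0 in MHC, at 0.120 FPKM (range 0.00805 to 0.232), and stood at 1.59 FPKM in Rbfox2 OE (range 0.878 to 2.29). These bounds were separate under each of the 3 scalings, where 5.34% of 4550 genes with a mean from 0.1 to under 1 FPKM were separate and higher. Its log2 ratio of 1.21 depends on the pseudocount, since 1 FPKM is large beside the control value: it was 2.94 with 0.1 FPKM added and 0.36 with 5 FPKM added. In GENCODE M21 the coding gene Ccdc85b overlaps Fosl1 on the opposite strand.

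**Figure D2:**
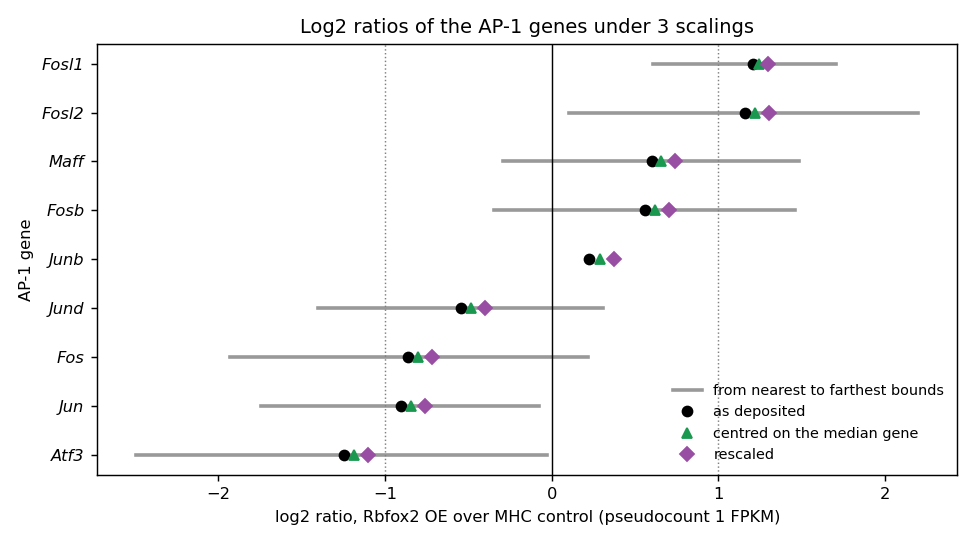
Log2 ratio of Rbfox2 OE over the MHC control for each AP-1 gene (pseudocount of 1 FPKM) as deposited, with the median gene set to 0 (centred) and rescaled; grey lines run from the nearest to the farthest pair of deposited bounds, and dotted lines mark 2-fold. The bars of Jun (from -0.08) and Atf3 (from -0.03) barely clear 0, that of Fosl2 starts at 0.11, and that of Fosl1 at 0.61.

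The 4 FOS genes took unequal shares of their summed FPKM, which carry no bounds of their own. Fos gave 89.0% of the sum in MHC and 70.6% in Rbfox2 OE. Fosb gave 7.37% and 16.1%, Fosl2 gave 3.54% and 12.3%, and Fosl1 gave 0.0564% and 1.08%. The bounds of the ratios of Fos to Fosb and of Fos to Fosl2 overlapped between the groups. The sum itself was 213 FPKM in MHC against 147 FPKM in Rbfox2 OE. Jun and Jund shared their sum more evenly, Jun giving 53.1% in MHC and 46.7% in Rbfox2 OE.

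Ratios between members within a group do not depend on how the groups are scaled, so they were computed for all 28 pairs of the 8 members other than Junb. The ratio bounds of the groups, taken from the nearest and farthest bounds of each gene, were separate for 8 pairs, of which 6 involve Fosl1. The other 2 involve Fosl2. The 28 pairs reuse the values of the same 8 genes, and no share over pairs of all genes was computed. The count of pairs is therefore a description only. Jun was 24.3 times the Fosl2 level in MHC (12.7 to 50.5) and 5.37 times in Rbfox2 OE (2.78 to 11.1). Atf3 was 11.9 times the Fosl2 level in MHC (5.22 to 27.1) and 2.07 times in Rbfox2 OE (0.862 to 4.71). Fos to Fosl2 was 25.1 in MHC and 5.73 in Rbfox2 OE. Fos to Jun was close to equal in both groups, at 1.03 and 1.07.

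With Junb as the exception, members with a mean of 25 FPKM or more lay below 0 and members under that level lay above 0, although the bounds of Fos, Jund, Fosb and Maff overlapped between the groups. All genes were set beside them in ranges of level chosen after these values were seen. Among 4177 genes with a mean from 1 to under 5 FPKM the median log2 ratio was 0.04, and 46.6% were below 0. Among 1860 genes from 25 to under 100 FPKM, the range of Atf3, the median was -0.17 and 61.3% were below 0. Among 697 genes at 100 FPKM or more, the range that holds Fos, Jun, Junb and Jund, the median was -0.12 and 58.7% were below 0. Among 4965 genes from 5 to under 25 FPKM, the range of Fosb, Fosl2 and Maff, the median was -0.11, while all 3 of these members were above 0.

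**Figure D3:**
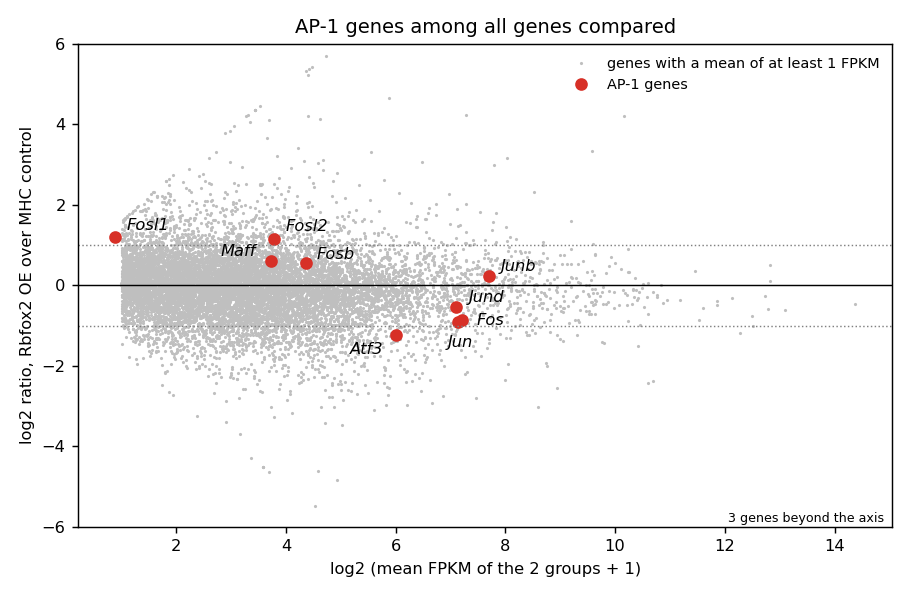
Log2 ratio of Rbfox2 OE over the MHC control against the log2 mean FPKM (plus 1) for the 11699 genes compared (grey) and the 9 AP-1 genes (red); dotted lines mark 2-fold. The AP-1 genes at 25 FPKM or more other than Junb lie below 0, and those below that level lie above 0.

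Most members have a short gene span, a trait that the choice by name did not use. Of the 9, 8 span less than the median gene compared (24278 bases), Atf3 being the exception at 47744 bases. Fosl2 is close to that median, at 22042 bases. The coding transcripts of Fosl2, Fosb and Jun are longer than the median of 2978 bases. Jun, Junb and Jund have a coding transcript of 1 exon, against 1.85% of 11072 protein-coding genes compared. The pentamer ATTTA, the core of AU-rich elements that mark short-lived messenger RNAs, occurred in the 3′ UTR of all 9 members and of 66.4% of the genes compared, a share not matched for 3′ UTR length.

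The longer AU-rich nonamer TTATTTATT was in 3 of the 9 3′ UTRs, those of Fos, Fosl2 and Maff, against 7.06% of the genes compared. That share was not matched for 3′ UTR length, so the count does not show that the nonamer is more frequent in the family. The median 3′ UTR of the genes compared had 1003 bases, beside 815 for Fos, 4653 for Fosl2 and 1221 for Maff. The sites are shown because this element is known from the short-lived Fos messenger RNA, with the nonamer in capitals and 10 bases on each side, read from the GENCODE M21 transcripts.
Fos: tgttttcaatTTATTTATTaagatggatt
Fosl2: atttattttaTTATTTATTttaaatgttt
Maff, the site nearer the stop codon: ttccacactcTTATTTATTgcacgaatct
Maff, the site nearer the end: ctcccagagtTTATTTATTttctgacttc
The Fosl2 site lies at bases 3692 to 3700 of a 3′ UTR of 4653 bases, the longest of the family, and the Fos site at bases 655 to 663 of 815. Fos had a log2 ratio of -0.86, Fosl2 of 1.16 and Maff of 0.60, and the bounds of Fos and Maff overlapped between the groups.

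Promoter windows were taken from RefSeq (GRCm38.p6), which gave a window for 8 of the 9 members, with 3 windows for Maff. The 250 bases before the start are printed for Jun and Atf3, the lower members with separate bounds, for Fos, their partner at the same level, and for Fosl2, the higher member with separate bounds. Capitals mark a match on either strand to any of 8 motifs. The AP-1 site was searched as TGACTCA, and the cyclic AMP response element (CRE) as TGACGTCA. The core of the CRE was searched as TGACG, and a variant known from the Jun promoter as TGACATCA. The GC box was searched as GGGCGG, the TATA box as TATAAA, and the CCAAT box by the letters of its name. The CArG box, the core of the serum response element, was searched by its usual pattern. Each CRE holds 2 overlapping matches to its core, and GC boxes can overlap each other.
Fos, chr12:85473640-85473889, plus strand: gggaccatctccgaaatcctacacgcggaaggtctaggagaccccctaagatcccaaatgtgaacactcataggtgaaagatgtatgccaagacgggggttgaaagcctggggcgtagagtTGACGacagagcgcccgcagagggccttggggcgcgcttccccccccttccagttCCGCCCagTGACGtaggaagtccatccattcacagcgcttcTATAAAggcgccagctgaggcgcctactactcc
Jun, chr4:95052223-95052472, minus strand: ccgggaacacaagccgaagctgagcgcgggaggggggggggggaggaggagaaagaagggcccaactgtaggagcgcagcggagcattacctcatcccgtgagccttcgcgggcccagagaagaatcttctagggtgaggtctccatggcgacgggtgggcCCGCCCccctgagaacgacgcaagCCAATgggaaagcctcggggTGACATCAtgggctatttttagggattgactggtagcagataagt
Atf3, chr1:191183334-191183583, minus strand: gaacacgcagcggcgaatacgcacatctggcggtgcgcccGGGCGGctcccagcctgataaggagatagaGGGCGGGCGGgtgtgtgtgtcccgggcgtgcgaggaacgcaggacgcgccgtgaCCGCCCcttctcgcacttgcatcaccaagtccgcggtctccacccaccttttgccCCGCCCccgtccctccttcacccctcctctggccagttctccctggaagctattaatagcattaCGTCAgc
Fosl2, chr5:32136222-32136471, plus strand: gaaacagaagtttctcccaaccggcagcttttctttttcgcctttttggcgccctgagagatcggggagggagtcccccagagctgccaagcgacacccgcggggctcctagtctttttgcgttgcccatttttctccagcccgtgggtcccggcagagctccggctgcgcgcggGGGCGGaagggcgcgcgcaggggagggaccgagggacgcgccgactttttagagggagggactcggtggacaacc
The Fosl2 start in RefSeq lies 671 bases from the nearest GENCODE start of a coding transcript, and that of Jund 1210 bases, so those windows may miss the start used in these cells. The Atf3 start in RefSeq, at base 191183333, lies 7 bases from such a start. The annotated Atf3 gene begins farther upstream, at base 191218039, so its window may also miss the start used.

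Matches differed from member to member. Besides 1 GC box, Fos held the core TGACG at 129 to 125 and at 66 to 62 bases before the start and TATAAA at 33 to 28 bases before it. Jun held TGACATCA at 45 to 38 bases before the start, and Maff held the same letters at the same distance from its start 3. Atf3 held TGACG on the minus strand at 7 to 3 bases before the start, besides 5 GC boxes. Fosl2 held 1 GC box and no other match.

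The core TGACG was found in 5 of the 8 members with a window and in 17.7% of all 32817 windows of this length. The full CRE was found in Maff alone among the members, at start 2, and in 1.55% of all windows. TGACATCA was found in 2 members and in 2.93% of windows, the GC box in 6 members and 32.7% of windows, CCAAT in 2 members and 33.8%, and TATAAA in 1 member and 12.4%. The AP-1 site (4.46% of windows) and the CArG box (1.47%) were in none of the members' windows, which says only that these letters are not in these 250 bases. Members with more than 1 window have more sequence searched. The members' windows held 58.4% to 68.8% G and C, apart from Jund (47.6%) and Maff start 1 (48%), beside a median of 52.4% for all windows. The shares of all windows were not matched for this, so the counts do not show that a motif is more frequent in the family.

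**Figure D4:**
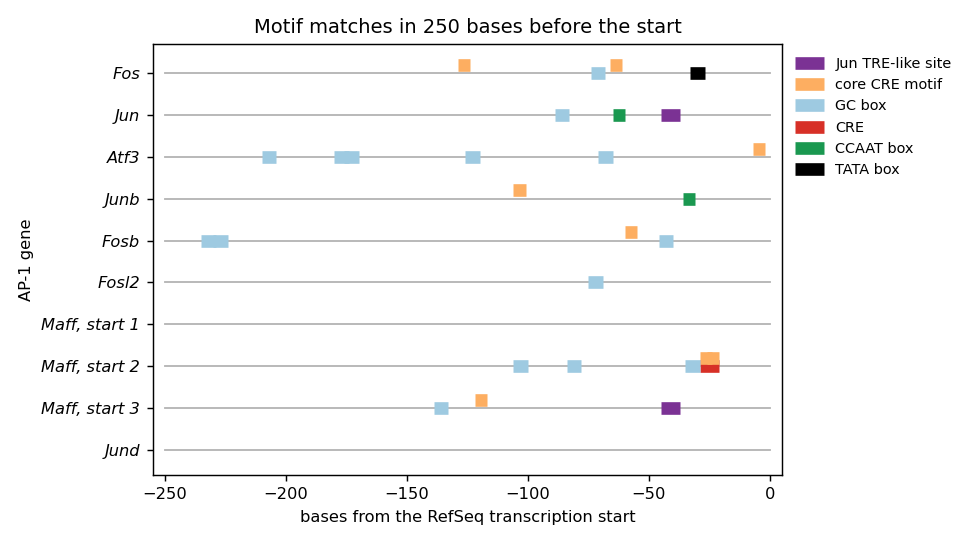
Positions of motif matches in the 250 bases before each RefSeq transcription start (x axis, bases from the start), 1 line per start of the 8 AP-1 genes with a window, coloured by motif; the core CRE motif is drawn slightly above the line. Fos, Junb, Fosb, Atf3 and Maff hold the core CRE motif, and the windows of Jund and Maff start 1 hold no match.

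The surrounding pathway was described from lists of named genes. Transcription factors that act on the Fos and Jun promoters, such as SRF, the ELK factors and CREB, gave 13 genes to compare. Of these, 0 were 2-fold apart, beside 17.0% of all genes. Separate bounds were found for 0, beside 9.31% of all genes lower and 6.67% higher. With 13 genes, counts of 0 do not show that these factors were unchanged. The median log2 ratio was -0.05 (0.08 on rescaling). Srf, which drives Fos through the serum response element, stood at 39.7 FPKM in MHC (range 18.4 to 61.0) against 32.0 FPKM in Rbfox2 OE (range 13.5 to 50.4). Creb1, which binds the CRE, had a log2 ratio of -0.05.

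Genes of the MAP kinase cascade, which activates FOS and JUN proteins and their promoters, were lower more often than higher. Of 24 compared, 20 had a log2 ratio below 0, where 46.6% to 61.3% of all genes were below 0, depending on the range of level. On the lower side 4 reached 2-fold and on the higher side 0, and the median was -0.55 (-0.41 on rescaling). The 4 apart in either direction stand beside 17.0% of all genes. On the lower side alone, 6.08% to 14.6% of all genes were 2-fold lower, depending on the range of level. On rescaling 3 of the 24 were 2-fold lower and 2 had separate, lower bounds. As deposited the bounds were separate for 3 lower genes, beside 9.31% of all genes, and for 1 higher gene, beside 6.67%. The higher gene was Mapk11, a p38 kinase gene, at 0.783 FPKM in MHC against 2.09 FPKM in Rbfox2 OE. Map2k6, a kinase that activates p38, stood at 4.01 FPKM in MHC against 0.845 FPKM in Rbfox2 OE, a log2 ratio of -1.44. Map3k5, the stress kinase ASK1, stood at 12.3 FPKM and 4.81 FPKM, a log2 ratio of -1.20.

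The JUN kinase genes Mapk8, Mapk9 and Mapk10 are named for that role, after their values were seen. Their log2 ratios were -0.77, -0.75 and -1.30, each with overlapping bounds. Of 9 MAP kinase phosphatase genes compared, 0 were 2-fold apart (1 was 2-fold higher on rescaling), beside 17.0% of all genes. The bounds were separate for 1 lower gene, Dusp1, and 1 higher gene, Dusp4, beside 9.31% and 6.67% of all genes. Dusp1, an immediate early gene whose product switches MAP kinases off, stood at 174 FPKM in MHC (range 124 to 223) against 93.6 FPKM in Rbfox2 OE (range 66.1 to 121), a log2 ratio of -0.88 beside -0.91 for Jun. Its separation, too, was lost on rescaling. Dusp4 stood at 0.415 FPKM in MHC against 1.76 FPKM in Rbfox2 OE.

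Of 12 genes that control the turnover of AP-1 messenger RNA and protein, 9 had a log2 ratio above 0, with a median of 0.23 (0.38 on rescaling). Among all genes compared, 46.6% to 61.3% were below 0, depending on the range of level. On rescaling 1 of the 12 was 2-fold higher and 2 had separate, higher bounds. As deposited 0 of the 12 were 2-fold apart and 1 had separate, higher bounds, beside 6.67% of all genes. That gene, Zfp36l2, encodes a protein that binds AU-rich elements and stood at 9.29 FPKM in MHC against 18.3 FPKM in Rbfox2 OE. Zfp36, which encodes tristetraprolin, the best-known factor of this kind, stood at 118 FPKM and 123 FPKM with overlapping bounds. Of other leucine-zipper genes that can share dimers or sites with AP-1, 16 of 21 had a log2 ratio above 0. Their median was 0.49 (0.63 on rescaling). Of the 21, 2 were 2-fold higher, beside 6.97% of all genes, and 1 was 2-fold lower (4 and 0 on rescaling). The bounds were separate for 2 higher genes and 1 lower gene (3 and 1 on rescaling). As deposited 6.67% of all genes were separate and higher and 9.31% separate and lower. Cebpd, a factor of the acute inflammatory response, stood at 11.6 FPKM in MHC against 26.9 FPKM in Rbfox2 OE, and Cebpa had a log2 ratio of 1.11. Atf6, a sensor of endoplasmic reticulum stress, stood at 34.5 FPKM and 15.2 FPKM, a log2 ratio of -1.14. All 3 had separate bounds.

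Genes reported as AP-1 targets in various cell types were higher in Rbfox2 OE in most cases. Of 21 compared, 13 were at least 2-fold higher, beside 6.97% of all genes, and 2 were at least 2-fold lower. The list was written with the values of several of its genes known, so its count is no independent evidence of a direction. Timp1, an inhibitor of matrix metalloproteinases, stood at 3.49 FPKM in MHC against 112 FPKM in Rbfox2 OE, Spp1, which encodes osteopontin, at 0.0959 FPKM and 40.4 FPKM, and Nppa, the atrial natriuretic peptide gene, at 118 FPKM and 2178 FPKM. In the other direction, Vegfa, an endothelial growth factor gene, stood at 141 FPKM and 50.8 FPKM, and Nqo1, a quinone reductase gene, at 28.0 FPKM and 12.1 FPKM. Nppa is also in the list of atrial markers.

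Transcripts of other cell types were higher alongside Fosl1 and Fosl2. Of the macrophage and leukocyte markers 10 of 11 compared were at least 2-fold higher, and the summed level of the 12 listed genes was 114 FPKM in MHC against 424 FPKM in Rbfox2 OE. For fibroblast markers the count was 8 of 10 and the sums were 275 and 665 FPKM, and for endothelial markers 2 of 10, with sums of 282 and 493 FPKM. Smooth muscle and pericyte markers had 2 of 10 genes 2-fold higher and 1, Abcc9, lower, with sums of 916 and 1192 FPKM. Des alone gave 711 and 848 FPKM of these sums, so they do not stand for the list as a whole. The part of heart muscle cells in the Des and Abcc9 values was not tested. Red blood cell markers had 4 of 5 higher, with sums of 56.6 and 295 FPKM, Slc4a1 being listed at 0 in MHC. Atrial markers had 6 of 8 higher, with sums of 269 and 3195 FPKM, and cardiomyocyte markers had 4 of 11 lower and 1 higher. These counts stand beside 6.97% of all genes compared that were 2-fold higher. On the lower side the share was 6.08% to 14.6%, depending on the range of level. On rescaling 11 macrophage and leukocyte, 4 endothelial and 3 smooth muscle and pericyte markers were 2-fold higher, and 3 cardiomyocyte markers were 2-fold lower. The part of these cells in the AP-1 values was not tested.

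Genes known to respond to tissue dissociation were compared because 6 of the 9 members are among them. Of the other 25, 3 reached 2-fold on the higher side and 0 on the lower side, with a median log2 ratio of 0.11, where 6.97% of all genes were 2-fold higher. On rescaling 4 were 2-fold higher, and the median was 0.23. Klf6, Nfkbiz and Cebpd were the higher genes, with log2 ratios of 1.24, 1.25 and 1.14 and separate bounds. On the lower side Dusp1, with a log2 ratio of -0.88, had separate bounds as deposited but not on rescaling. Of all genes compared, 6.67% were separate and higher and 9.31% separate and lower. Egr1, an immediate early gene named after its value was seen, stood at 155 FPKM in MHC against 122 FPKM in Rbfox2 OE with overlapping bounds. In all, 15 of the 25 had a log2 ratio above 0 and 10 below it.

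**Figure D5:**
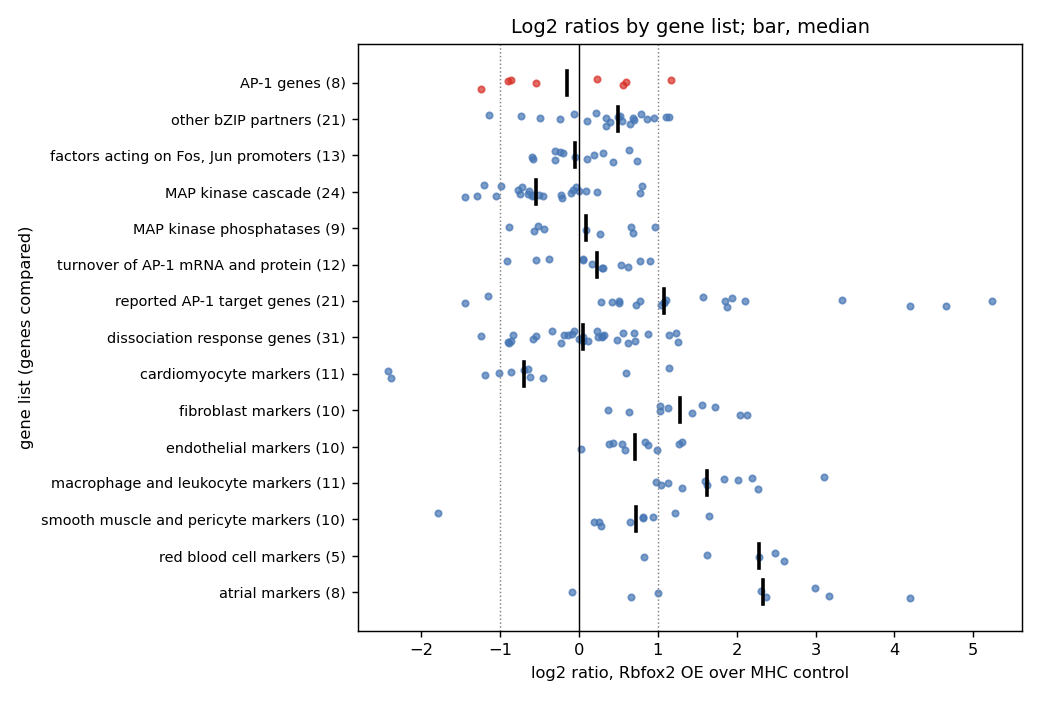
Log2 ratio of Rbfox2 OE over the MHC control for each gene with a mean of at least 1 FPKM, by gene list (AP-1 genes in red, number of genes compared in brackets); black bars are list medians and dotted lines mark 2-fold. The AP-1 genes spread from -1.24 to 1.16 around a median of -0.16, while the median of reported target genes is 1.08.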

How the data were processed

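Libraries were made with a stranded mRNA kit from RNA of isolated cardiomyocytes, per the labels' protocols. The deposited table held FPKM values pooled by group, and their other deposited values, the lower and upper bounds, from Cuffdiff per the file headers. The submitters' processing notes name Cuffdiff 2.2.1, STAR 2.4.2a, other tools and the builds GRCm38 and mm10. The gene annotation, the normalization mode and whether counting used strand are not given in the sources used here. FPKM values hold no fragment counts, so the depth is unknown and no counting intervals were given. The number of unused columns of per-sample values was 0.

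Log2 ratios were taken after adding 1 FPKM, so that changes of low genes are understated, and genes averaging 1 FPKM or more were compared. Each row was kept as a gene. A listed symbol on several rows took the row with the higher mean. A gene whose value lay outside its own bounds was not called by bounds. Genes named were all members and, of each list, up to 3 genes per direction with a 2-fold difference and separate bounds, besides those said to be named otherwise. The members and lists were chosen with earlier results of these data known. Coordinates and transcripts are from GENCODE M21 on GRCm38, the build in the notes. No p-values were computed. One marker gene is not reported here. The calculations (Python 3.11.15, pandas 2.3.3) were tested on simulated data.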

Additional observations from a re-analysis of the deposited data

How the results depend on the processing

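No paired analysis was possible because replicates I and II were pooled by the authors before deposit. No library could be left out either, and the spread between libraries limits every comparison here. The log2 ratios of the 9 genes kept their sign under both other pseudocounts and both other scalings, while the nearest pair of bounds turned the sign of Fos, Fosb, Jund and Maff. Fosl1 moved most, from 1.21 to 2.94 with a pseudocount of 0.1 and to 0.36 with 5, because its control value is near 0. The count of members at least 2-fold higher, 1, became 0 with a pseudocount of 5, 2 without the filter on low values (Fosl1 entered) and 2 at a 1.5-fold threshold. The count 2-fold lower, 1, became 3 at 1.5-fold. Members with separate bounds, 3, became 2 after centring on the median gene and 1 on rescaling without mitochondrial and the most abundant genes, where Fosl2 alone was left. The median log2 ratio of the members, -0.16, was -0.01 on rescaling and 0.23, the value of Junb itself, once Fosl1 entered.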

Other observations

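The pentamer GCATG, the known binding motif of RBFOX proteins, occurred in the 3′ UTR of 7 of the 9 AP-1 genes, against 56.3% of the genes compared. Fosl2 held 8 copies in its 4653 bases and Jun held 3 in 1233 bases, while Junb and Fosl1 held 0. Jun, with a log2 ratio of -0.91, and Fosl2, with 1.16, lay on opposite sides of 0. These are letter matches only, the share of all genes was not matched for 3′ UTR length, and binding was not measured.

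Junb was not alone in lying outside its own bounds. Over all rows, 14 genes had a value outside its bounds in at least 1 group, and 4 of these carry an identifier with the same version in GENCODE M21: Junb, Scn4a, Mia3 and Snhg14. For all 4 the annotated gene reaches beyond the locus given in the table. Among all 40601 genes with a matching identifier, 12 (0.0296%) reach beyond their locus, and 8 of those have values inside their bounds. Scn4a, for example, was listed at 12.2 FPKM in MHC with bounds of 2.18 to 6.86 FPKM. Among the other AP-1 genes, the annotated genes of Maff and Fosl1 also begin before the locus given for them. The values of Maff and Fosl1 lie inside their bounds.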
